A study of Mus musculus with 18 samples.

Results

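Genes that mark Kupffer cells and other macrophages were followed mouse by mouse in the liver of male CD-1 mice fed bisphenol A. They are Clec4f, Cd68, Csf1r, Adgre1, Marco, Vsig4, Cd5l, C1qa, C1qb and C1qc, taken as every probe whose name in the scanner files is 1 of these symbols (Adgre1 under its older name Emr1). They make up 10 of the 17681 genes tested and 13 of the 41174 probes on the array. Mice of the CD-1 stock, which is outbred, started at 5 weeks of age and ate a powdered diet for 28 days, so that all were 9 weeks old at sampling. The 6 controls ate this diet without the compound (a dose of 0), the 6 low-dose mice took in 50 µg per kg per day and the 6 high-dose mice 5000 µg per kg per day, as averages calculated from an assumed food intake. RNA of a fragment of the large liver lobe from each mouse was read on its own 1-colour Agilent array.

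Kupffer cells are the resident macrophages of the liver. They lie in the sinusoids, depend on signalling through the CSF1 receptor, and clear bacteria, lipoproteins, dying cells and complement-coated particles from portal blood. Bulk liver RNA comes mostly from hepatocytes, so these transcripts report a minor cell population, and a change in the number of macrophages cannot be told apart from a change in the RNA each of them holds.

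The level of a gene is the log2 intensity of its brightest probe with the 75th percentile of its own array subtracted, so that 0 is the brightness of that percentile. All 10 genes passed the filter on dim probes. The probe used for each was well above background on all 18 arrays, and none was saturated on any. Probe brightness also depends on the probe, so levels are compared between mice and not between genes. On the mm8 build named in the probe coordinates, the probe of Clec4f lies at chr6:83610945-83611003, that of Cd68 at chr11:69481007-69481066 and that of Adgre1 at chr17:57168755-57168814. The probe of Marco lies at chr1:122302084-122302103, that of Vsig4 at chrX:92450537-92450596 and that of Cd5l at chr3:87456828-87456887. The 3 C1q probes lie within a short stretch of chromosome 4, at chr4:136152739-136152798 for C1qb, chr4:136161927-136161986 for C1qc and chr4:136168570-136168629 for C1qa. The Csf1r probes lie on chromosome 18. No position within the transcripts (exon or UTR) was worked out, as no annotation of that build was used here.

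One array stood apart. High-dose mouse 2 correlated at r = 0.97 with the mean of the other arrays of its group over all genes, against 0.98 to 0.99 for the other 17 arrays. It held the highest level of all 5 measured neutrophil markers and of several inflammatory genes. S100a9, a calcium-binding protein of neutrophils, was at 5.44 there against -0.86 to 2.36 in the other 17 mice, and the LPS co-receptor Cd14 was at 5.30 against -0.77 to 0.87. Results for the marker genes that rest on this mouse are given with and without it. The 75th percentile itself also went with dose group: its mean was 230.1 intensity units in controls, against 295 with the low and 292 with the high dose. Controls occupied slide positions 1 and 4 only, and no fit held position. The part of brightness and position in the group comparisons was not tested.

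Neither dose of bisphenol A changed a marker gene past the threshold. In the limma fit, 0 of 10 genes passed an adjusted p of 0.05 for low dose against control, where 0.243% of all 17680 genes tested did. The count was 0 of 10 for high dose against control (0% of all genes) and 0 of 10 for high against low dose (0.0283%). The count at an unadjusted p under 0.05 was 0 of 10 in each of the 3 comparisons as well, against 11.6%, 6.97% and 7.68% of all genes. Groups without overlap were found for 0 of 10 marker genes in each comparison. Over all genes the shares without overlap, higher and lower, were 0.667% and 0.933% for low dose against control, 0.119% and 0.209% for high dose against control, and 0.141% and 0.305% for high against low dose. By direction alone, low-dose mice had the higher mean for 9 of 10 genes against controls (45.7% of all genes), high-dose mice for 9 of 10 against controls (49% of all genes) and for 10 of 10 against low-dose mice (54.6%). The median log2 difference of the 10 genes was 0.15, 0.38 and 0.20 in these comparisons, against -0.02, -0.0048 and 0.02 over all genes. The genes varied together from mouse to mouse, so these 10 signs are not 10 separate observations. Without high-dose mouse 2, 5 of 10 genes were higher at the high than at the low dose, with a median of -0.0075, and the high-dose median against controls was 0.20. Without low-dose mouse 1, 3 of 10 genes were above controls at the low dose, and without control mouse 4 it was 4 of 10. With slide as a term of the fit, the 3 medians were 0.02, 0.34 and 0.29. Read slide by slide, every marker gene was above controls on 1 to 3 of the 4 slides that held both groups, at either dose, so each sign occurred in both directions.

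**Figure D1:**
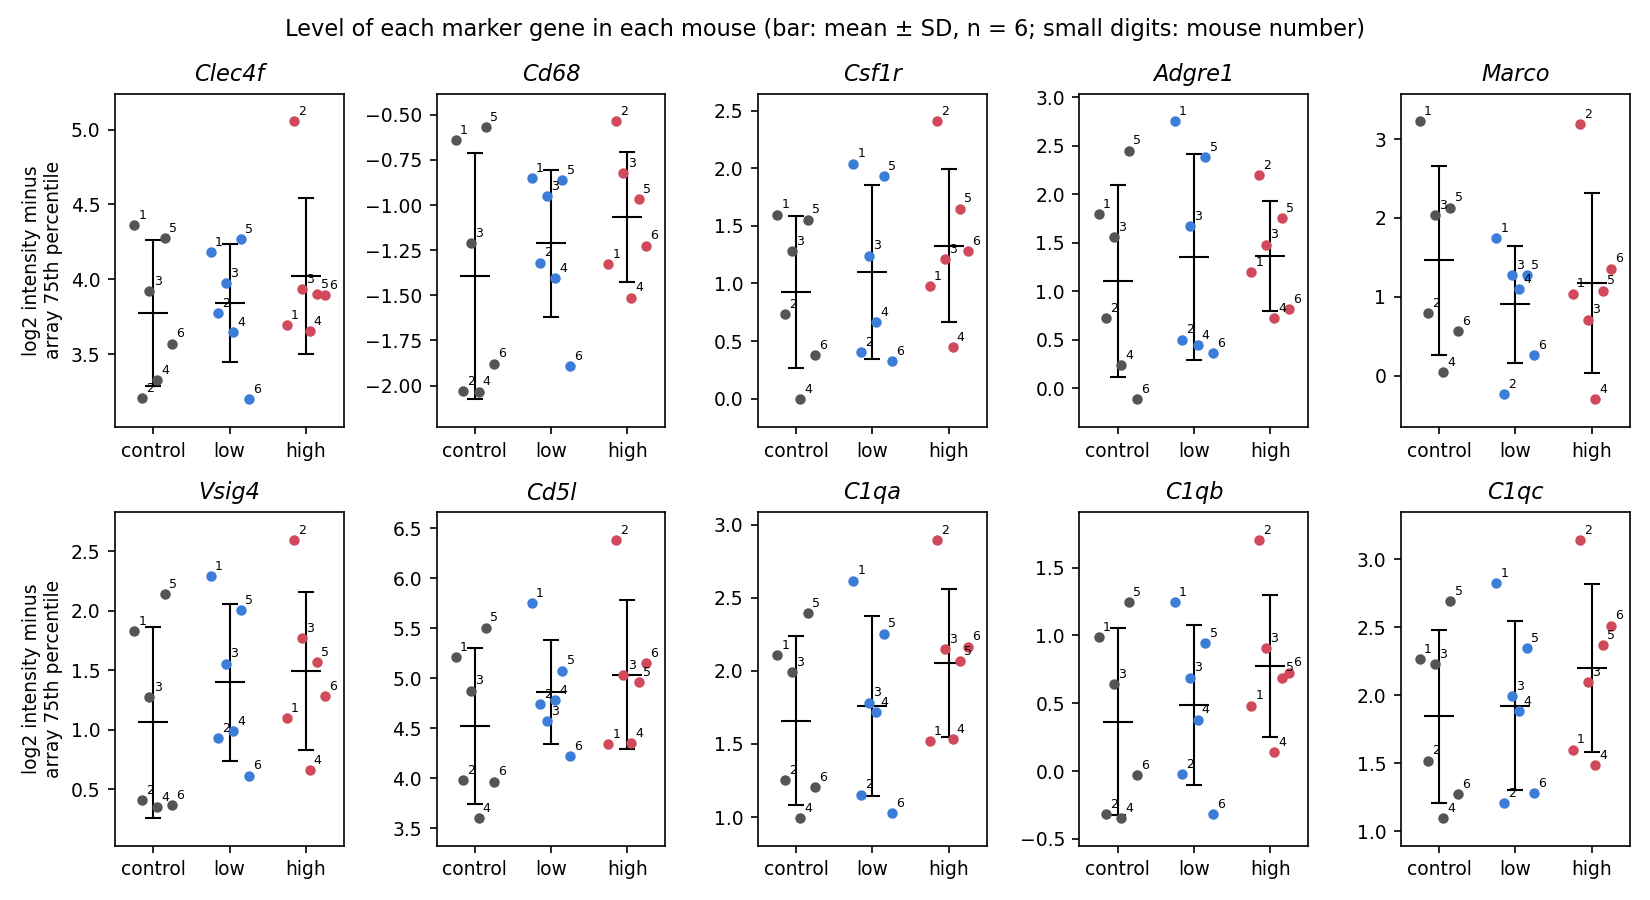
Level of each of the 10 marker genes in each mouse (vertical axis, log2 scale, relative to the array's 75th percentile; each panel has its own axis range) in control, low-dose and high-dose mice, with group mean ± SD (n = 6) and the mouse number beside each point. The groups overlap in every panel, and high-dose mouse 2 is the highest high-dose mouse in all 10.

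Among the genes most restricted to Kupffer cells, Clec4f encodes a C-type lectin receptor. Its level ran from 3.21 through a median of 3.74 to 4.36 in controls, from 3.20 through 3.88 to 4.27 at the low dose, and from 3.65 through 3.90 to 5.06 at the high dose. High-dose mouse 2 alone lay above the control range, and the other 5 high-dose mice lay between 3.65 and 3.94. The difference from controls was 0.07 ± 0.26 (SE) for the low dose and 0.25 ± 0.26 for the high, with a 95% confidence interval of -0.30 to 0.79 for the latter. Without high-dose mouse 2 the high-dose difference was 0.04.

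Vsig4 encodes the complement receptor CRIg, with which Kupffer cells take up particles coated with C3 fragments. Controls ran from 0.35 to 2.14 with a median of 0.84, low-dose mice from 0.62 to 2.29 with a median of 1.27, and high-dose mice from 0.66 to 2.60 with a median of 1.43. Control mice 2, 4 and 6 sat together at 0.35 to 0.41, below every dosed mouse, while control mice 1 and 5 were within the upper part of the dosed range. The difference from controls was 0.34 ± 0.39 for the low dose and 0.43 ± 0.39 for the high (adjusted p = 0.805 and 0.851 in the limma fit). The latter was 0.21 without high-dose mouse 2.

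Cd5l encodes AIM, a secreted protein of tissue macrophages that binds lipids and supports their survival. Its probe was at a mean level of 4.80 over all mice. Control values ran from 3.60 through 4.43 to 5.51, low-dose values from 4.22 through 4.76 to 5.75, and high-dose values from 4.34 through 4.99 to 6.38. The 3 lowest mice of the study (control mice 2, 4 and 6, at 3.60 to 3.98) were controls, but control mice 1 and 5 exceeded most dosed mice. With 0.51 ± 0.38, an interval of -0.28 to 1.31 and an adjusted p of 0.817, the high-dose difference of Cd5l was the largest positive difference among the 10 genes. It was 0.24 without high-dose mouse 2.

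Marco, a scavenger receptor that binds bacteria and particles, differed from the other 9 genes in sign. Its levels were 0.04, 1.41 and 3.23 (lowest, median, highest) in controls, -0.23, 1.18 and 1.74 at the low dose, and -0.30, 1.06 and 3.19 at the high dose. The control and high-dose groups each held 1 mouse above 3, control mouse 1 and high-dose mouse 2, and the low-dose group had none above 1.74. The difference from controls was -0.56 ± 0.57 for the low dose (interval -1.76 to 0.63, adjusted p = 0.770) and -0.28 ± 0.57 for the high. It was the 1 gene of the 10 with a negative difference in both, and neither was larger than the spread between mice, whose SD within groups was 1.05. Without high-dose mouse 2 the high-dose value was -0.69, and without control mouse 1 it was 0.07.

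Csf1r encodes the receptor for CSF1 and IL-34 on which macrophages depend for survival. In controls it ran from -0.0066 through a median of 1.01 to 1.60, at the low dose from 0.33 through 0.95 to 2.04, and at the high dose from 0.45 through 1.25 to 2.41. Low-dose mice 1 and 5 and high-dose mice 2 and 5 exceeded all controls, and the other 8 dosed mice lay within the control range. The differences from controls were 0.18 ± 0.38 and 0.41 ± 0.38, the latter 0.19 without high-dose mouse 2. A second Csf1r probe, at a lower brightness, gave 0.32 ± 0.44 and 0.49 ± 0.44, and followed the first over the 18 mice at r = 0.96. The third Csf1r probe was well above background on 3 arrays and was not used.

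Adgre1 encodes F4/80, the surface protein used to stain mouse macrophages. Control levels ran from -0.11 through 1.14 to 2.45, low-dose levels from 0.37 through 1.09 to 2.75, and high-dose levels from 0.72 through 1.34 to 2.20. In the low-dose group mice 1, 3 and 5 were at 1.67 or above and mice 2, 4 and 6 at 0.50 or below, with none between. The differences from controls, 0.25 ± 0.49 and 0.25 ± 0.49, were well under the within-group SD of 0.90, and the high-dose value was 0.086 without high-dose mouse 2. A second Adgre1 probe was well above background on 9 of 18 arrays and followed the first at r = 0.89.

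Cd68 encodes a glycoprotein of macrophage lysosomes and endosomes. It ran from -2.03 through -1.55 to -0.57 in controls, from -1.89 through -1.13 to -0.85 at the low dose, and from -1.51 through -1.10 to -0.54 at the high dose. Control mice 2 and 4 were the lowest of the study and control mouse 5 was the second highest. The differences from controls were 0.18 ± 0.28 and 0.33 ± 0.28, the latter 0.22 without high-dose mouse 2.

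C1qa, C1qb and C1qc encode the 3 chains of C1q, the recognition part of the first complement component, which macrophages secrete. C1qa ran from 0.99 through 1.62 to 2.39 in controls, from 1.03 through 1.75 to 2.62 at the low dose, and from 1.52 through 2.11 to 2.90 at the high dose. C1qb ran from -0.34 through 0.31 to 1.25, from -0.32 through 0.53 to 1.24, and from 0.14 through 0.71 to 1.70 in the same order. For C1qc the values were 1.10, 1.87 and 2.69, then 1.21, 1.94 and 2.83, then 1.49, 2.23 and 3.14. In all 3 genes the lowest high-dose mouse lay above the lowest mouse of either other group, and high-dose mouse 2 was the highest of all. The low-dose differences were 0.10 ± 0.31, 0.12 ± 0.33 and 0.08 ± 0.34, and the high-dose differences 0.40 ± 0.31, 0.41 ± 0.33 and 0.36 ± 0.34. Without high-dose mouse 2 the latter were 0.23, 0.22 and 0.17.

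**Figure D2:**
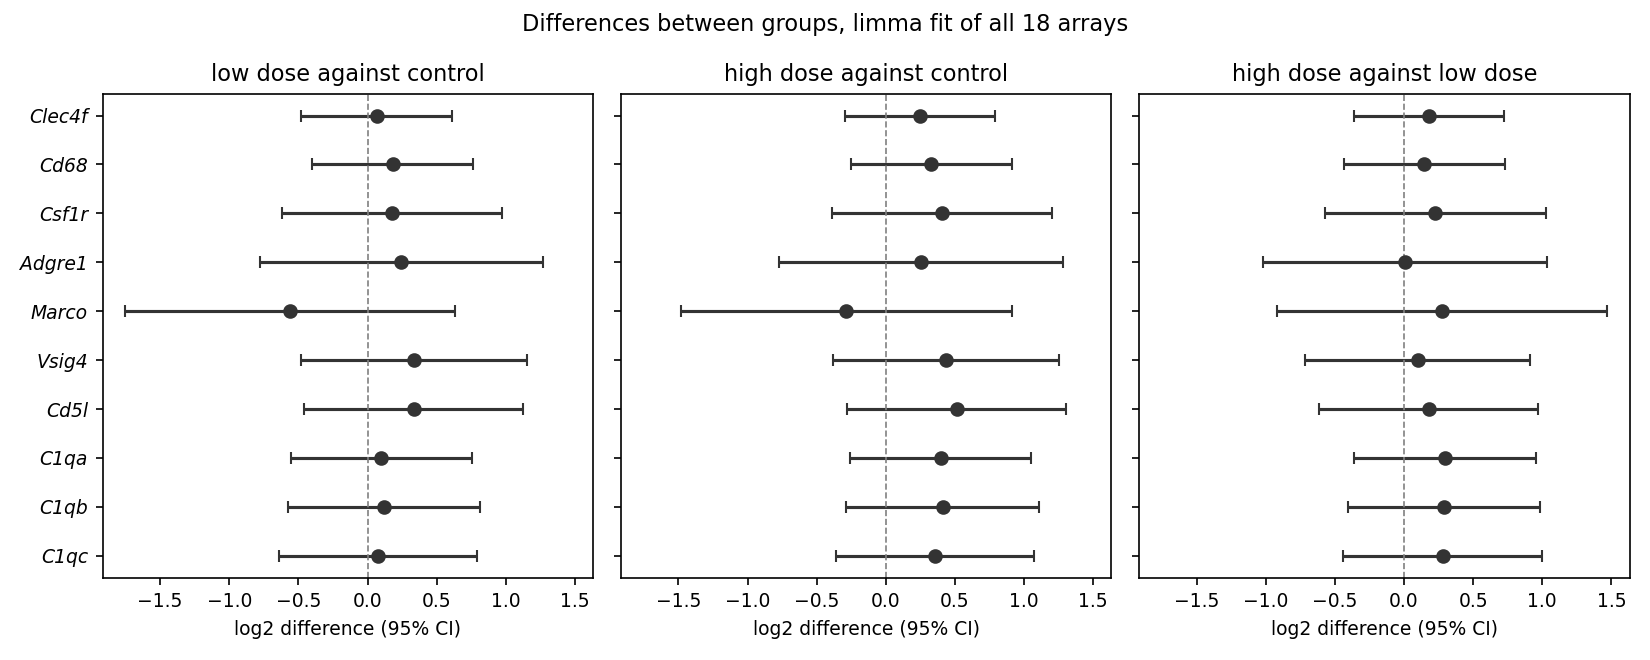
Log2 difference (horizontal axis) of each marker gene in the 3 comparisons, with the 95% confidence interval of the limma fit of all 18 arrays. Every interval includes 0; the points lie above 0 except for Marco, at -0.56 and -0.28 against controls.

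The intervals show what sizes these data leave room for. The standard error of a marker gene's difference had a median of 0.358, since the marker genes varied more within groups than most genes did. Their within-group SD ran from 0.47 (Clec4f) to 1.05 (Marco), which are the 73.3rd and 96.5th percentiles of all genes, against a median gene's 0.291. Between the highest and the lowest mouse of the study, levels differed from 2.82-fold for Cd68 to 11.5-fold for Marco. Inside the control group alone the same range was 2.23-fold (Clec4f) to 9.10-fold (Marco). For each of the 10 genes, the range within controls was larger than any difference between group means.

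This spread was shared. After group means were removed, the 10 genes correlated with each other over the 18 mice at a median Pearson r of 0.89 over their 45 pairs, from 0.75 (Adgre1 and Marco) to 0.98 (C1qa and C1qc). Spearman's rho had a median of 0.90 and ran from 0.77 to 0.97. Mice were permuted within groups 100000 times for each pair: the largest permutation p for r was 0.00053, and the largest value after Benjamini-Hochberg adjustment over the 45 pairs was 0.00053 for r and 0.00065 for rho. All 45 pairs were positive at these settings. With normexp background correction the 9 pairs with Cd68 ran from -0.059 to 0.46, and the other 36 had a lowest r of 0.74. The Cd68 probe was the dimmest of the 10 used, at the 41.9th percentile of all genes, and the cause was not tested. Over all pairs of 17209 genes, which share the same array scaling, the median r was 0.012, and 0.411% of pairs reached the lowest r of the marker genes.

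All 45 pairs were also positive within each group and with slide removed. The median r of the 45 pairs was 0.95 among controls, 0.90 among low-dose and 0.91 among high-dose mice, with lowest pairs of 0.83, 0.65 and 0.71. Each of these r rests on 6 mice, and not every pair had an unadjusted exact permutation p under 0.05. That p was 0.064 for Clec4f and Adgre1 in controls, 0.15 for Clec4f and Marco at the low dose, and 0.11 for Adgre1 and C1qc at the high dose. With slide removed along with group, the median was 0.93 and the lowest pair 0.72. Leaving out the 2 mice farthest from the median of the first gene of each pair gave a median of 0.89 and a lowest pair of 0.71, and leaving out high-dose mouse 2 alone gave 0.89 and 0.75. The brightness of the array, as the log2 of its 75th percentile, correlated with the 10 genes at r between -0.44 (Cd68) and -0.20 (Adgre1), with adjusted permutation p of 0.358 to 0.486.

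**Figure D3:**
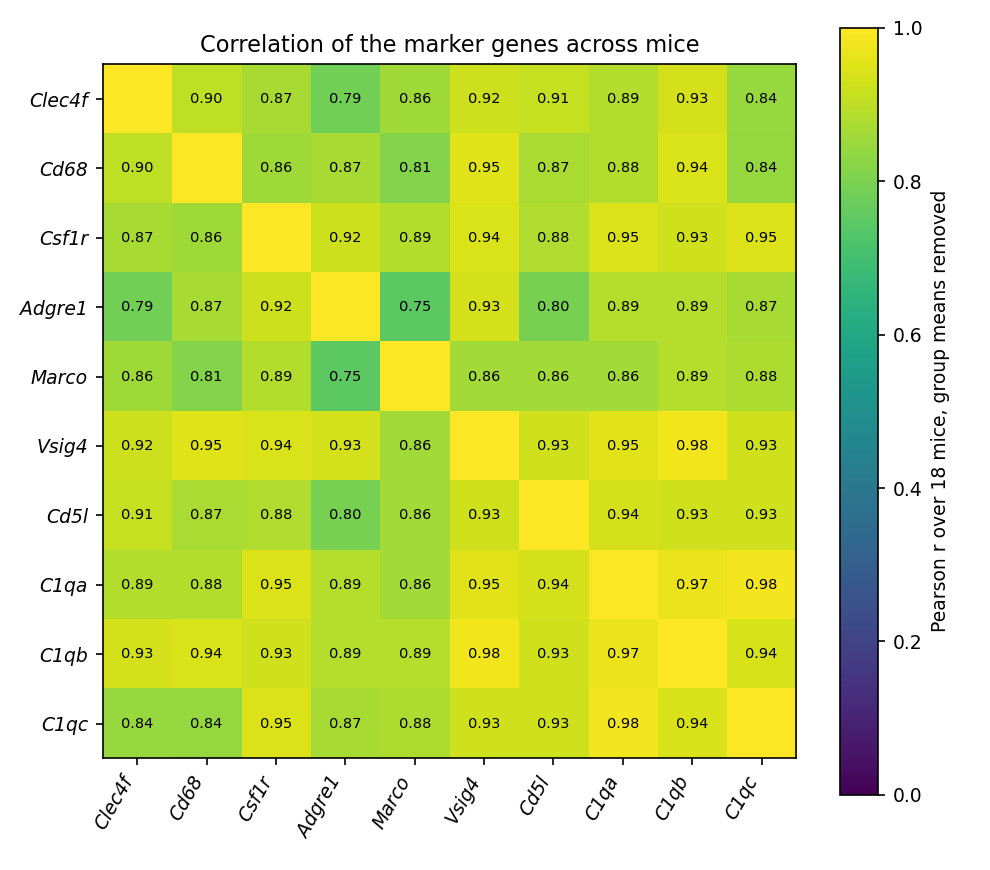
Pearson correlation of each pair of marker genes over the 18 mice after group means were removed (colour scale from 0 to 1, value in each cell). Pairs with Marco and the pair of Clec4f and Adgre1 are among the lower values, and the highest is C1qa with C1qc, at 0.98.

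Against the mean of the other 9 genes, C1qb and Vsig4 reached r = 0.98, C1qa 0.97, Csf1r and C1qc 0.95, Cd5l 0.94, and Cd68 and Clec4f 0.92, while Adgre1 and Marco were at 0.89. The 3 C1q chains correlated at 0.94 to 0.98 with each other. The log2 difference between the C1qa and C1qb probes lay between 1.04 and 1.57 in every mouse, with an SD of 0.14, against an SD over all mice of 0.56 for C1qa alone. Pairs that included Marco had a median r of 0.86, and the 36 pairs without it 0.93.

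Because the order of mice was nearly the same for every gene, the spread can be read mouse by mouse. Among controls, mice 1, 3 and 5 were the 3 highest for 10 of 10 genes. Low-dose mice 1, 3 and 5 were the 3 highest for 9 of 10, the exception being Cd5l, for which mouse 4 replaced mouse 3. In the high-dose group mouse 2 was highest for every gene, and 2 of mice 3, 5 and 6 made up the 3 highest. The mean level of the 10 genes was 2.27, 1.86 and 2.38 in control mice 1, 3 and 5, and 1.03, 0.73 and 0.93 in control mice 2, 4 and 6. It was 2.46, 1.78 and 2.16 in low-dose mice 1, 3 and 5, and 1.11, 1.42 and 0.91 in low-dose mice 2, 4 and 6. High-dose mice 1 to 6 stood at 1.46, 2.90, 1.85, 1.12, 1.91 and 1.80. The group means of these values were 1.53 ± 0.73 (SD, n = 6), 1.64 ± 0.60 and 1.84 ± 0.60. Deviations from the group mean, pooled over the 18 mice, ran from -0.81 to 1.07 with no gap between neighbouring mice above 0.22. Within groups the gaps were wider: no control mouse lay between 1.03 and 1.86, 3 being below and 3 above, and no high-dose mouse between 1.91 and 2.90. The 2 sets of 3 control mice are too small for an r of their own, so whether the correlation holds within each could not be tested. The mouse numbers are those of the labels, which tie no number to a litter, cage or day.

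**Figure D4:**
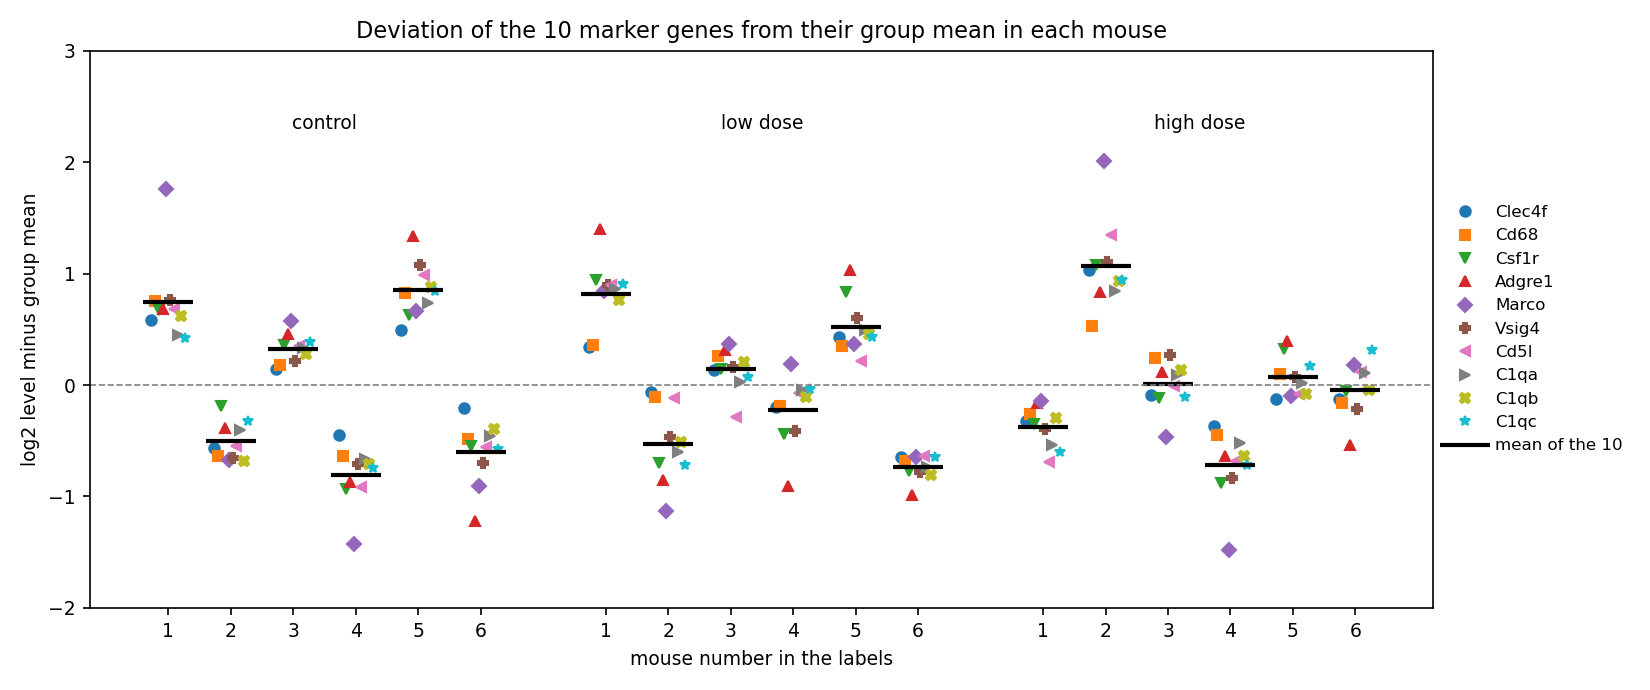
Deviation of each marker gene from its group mean (vertical axis, log2 level) in each of the 18 mice (horizontal axis, mouse number within control, low-dose and high-dose groups); coloured symbols are the 10 genes and the black bar is their mean. The symbols of a mouse move together, with means from -0.81 (control mouse 4) to 1.07 (high-dose mouse 2); Marco and Adgre1 deviate the most.

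Among the other genes most like the mean of the marker genes over the 18 mice were Folr2 and Itgal (r = 0.96 each), and Clec4n, Clec4a2, Ly86, Slc11a1, Msr1, Ripk3 and Clec4a3 (0.95 to 0.96). Folr2 is the folate receptor beta of resident macrophages, Slc11a1 the metal transporter of phagosomes and Msr1 scavenger receptor A. Clec4n, Clec4a2 and Clec4a3 are C-type lectins of myeloid cells, Itgal is the LFA-1 chain of leukocytes, Ly86 partners the Toll-like receptor relative CD180, and Ripk3 is a kinase of necroptosis. Without high-dose mouse 2 their r lay between 0.935 (Ripk3 and Clec4a3) and 0.955 (Folr2). Folr2, Slc11a1, Msr1 and Itgal also belong to the lists described next. The likeness was measured over the same 18 arrays, and 54 of 17199 genes outside the marker genes reached an r of 0.9, which is 0.314%. Like the marker genes, none of these 9 passed the threshold against controls, with high-dose log2 differences from 0.20 (Clec4n) to 0.61 (Itgal).

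Other genes enriched in Kupffer cells followed the 10 genes over a wide range of r. Of 16 measured on every array, 8 had an r of 0.7 or more, among them Clec1b, the receptor for podoplanin (0.92), the complement protein properdin, Cfp (0.92), the heme-degrading enzyme Hmox1 (0.91), the ficolin Fcna (0.89), Spic, a transcription factor of iron-recycling macrophages (0.85), and Timd4, a receptor for phosphatidylserine (0.74). Cd163 and Cd38 were at 0.56, Ctsc at 0.49 and Cd209f at 0.30. The iron exporter Slc40a1 was at 0.22, Il18 at -0.02, Hpgd at -0.11 and Id3 at -0.59. Slc40a1 and Id3 were bright, at percentiles of level of 94.5 and 87.5, and how much of their signal came from Kupffer cells was not tested. In the comparisons, 0 of 16 passed in any, with median log2 differences of 0.02 for the low dose and 0.05 for the high. The list of CSF1R ligands and signalling genes had a median r of 0.80 over 6 genes. The phospholipase Plcg2 was at 0.94, the adaptor Tyrobp at 0.92 and the phosphatase Inpp5d (SHIP1) at 0.91. Of the receptor's ligands, Csf1 was at 0.69 and Il34 at 0.46, and Csf2rb of the same list was at -0.19. No gene of the list lay between 0.69 and 0.91, so its median fell in a gap. Il34 had the smallest p of that list at the low dose, where it was -0.40 ± 0.17 against controls (adjusted p = 0.345).

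Lysosomal and granule genes of macrophages had a median r of 0.78 over 9 genes. Phagocytic and Fc receptors had a median of 0.60 over 16, of which 7 reached 0.7. Msr1, Axl, Siglec1, Tlr4 and Fcgr1 were at 0.88 or above, while Fcgr2b (0.19), Cd36 (0.29) and Mertk (0.31) were the lowest. Cytokines and chemokines of activated macrophages had a median of 0.59 over 7 genes, and of 0.41 without high-dose mouse 2. The interleukin Il1b was at 0.70 and Arg1, which hepatocytes express, at -0.0093. Tnf, Il6 and Ccl4 of this list were very dim, at percentiles of level from 1.2 to 2.8. Transcription factors of macrophages did not follow as a list, with a median of -0.04 over 9 genes. Irf8 reached 0.81, Tfec 0.66 and Zeb2 0.60, and the other 6 were below 0. Among these, Maf was at -0.16 and Nr1h3, the liver X receptor alpha that hepatocytes also express, at -0.31. The lowest was Cebpa at -0.32, a bright gene at a percentile of level of 93.1. How much of the signal of these 9 genes came from macrophages was not tested. The partners of C1q in the classical pathway, such as C3 and C4b, which hepatocytes make, had a median r of 0.20 over 5 genes and none at 0.7 or above. The C3 probe was saturated on all 18 arrays, so its differences are not given, and that of C4b on 1; the 3 genes never saturated also had a median r of 0.20.

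Markers of other cell types moved with the 10 genes to differing degrees. The median r was 0.70 for 7 monocyte genes, 0.44 for 5 neutrophil genes, 0.42 for 7 T and NK cell genes, 0.39 for 11 B cell and MHC class II genes, 0.36 for 4 red blood cell genes, 0.30 for 4 dendritic cell genes and 0.19 for 5 bile duct genes. Sinusoidal endothelial genes were at 0.26 (11 genes), stellate cell genes at 0.07 (10 genes) and hepatocyte genes at 0.05 (10 genes), and the median of all genes was -0.07. Of the hepatocyte probes, Alb was saturated on 18 arrays, Apoa1 on 17, Apoh on 16, Serpina1c on 8 and Cyp2e1 on 4, and the 5 genes never saturated had a median r of -0.21. High-dose mouse 2 had a large part in the endothelial and stellate values: without it they were 0.61 and 0.47, while neutrophil genes were at 0.24 and hepatocyte genes at -0.02. The part of monocytes or endothelial cells in the shared variation of the 10 genes was not tested.

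**Figure D5:**
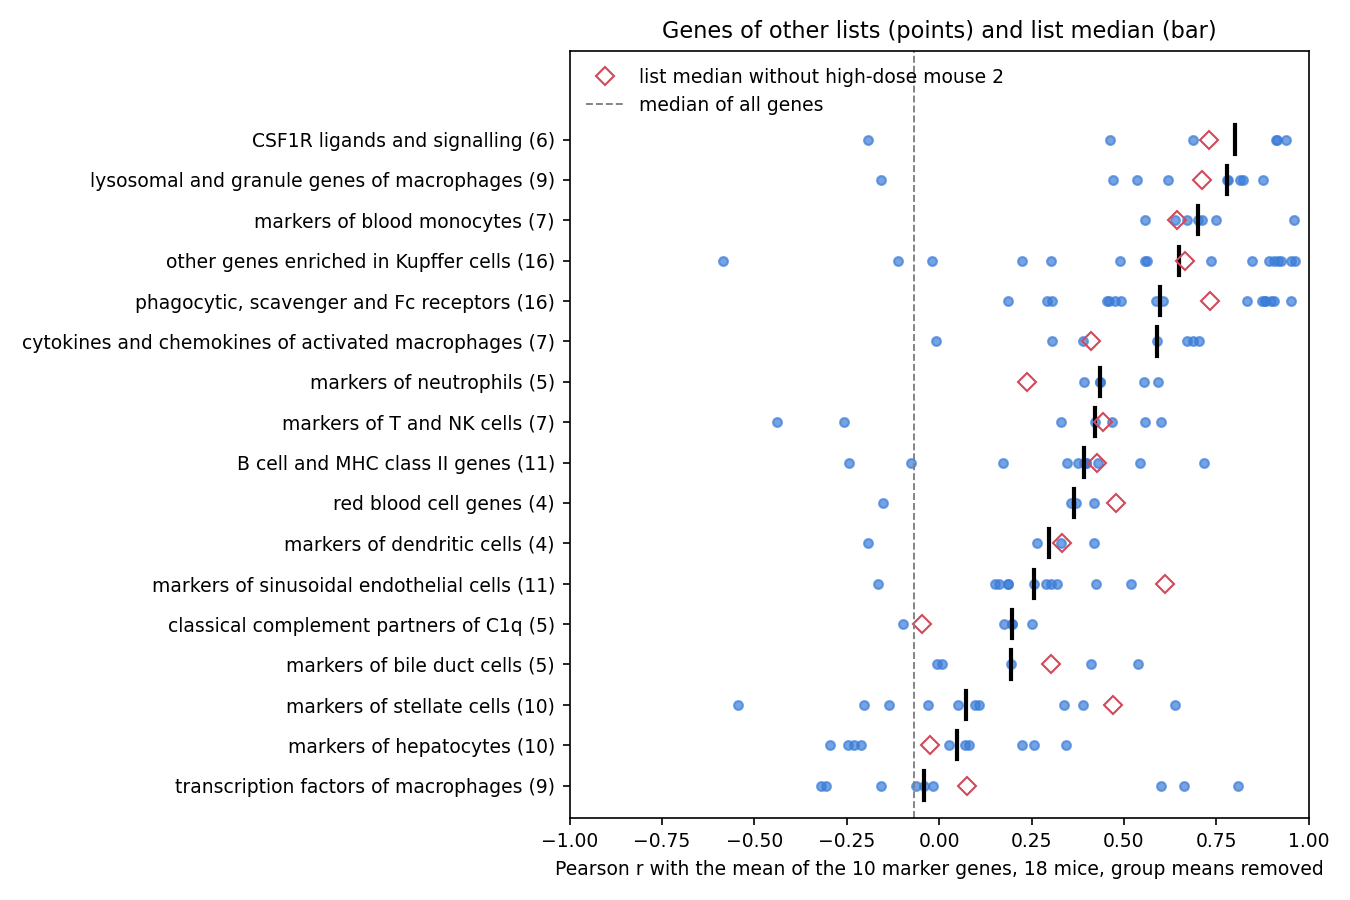
Pearson correlation (horizontal axis) of single genes of each list (points) with the mean of the 10 marker genes over 18 mice with group means removed; the bar is the list median, the open diamond the list median without high-dose mouse 2, and the number of genes is in brackets. Genes of CSF1R signalling and lysosomes have medians of 0.80 and 0.78; endothelial and stellate genes move from 0.26 and 0.07 to 0.61 and 0.47 without that mouse, and hepatocyte genes, 5 of 10 with a probe saturated on at least 4 arrays, go from 0.05 to -0.02.

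In the group comparisons, 1 gene of these lists passed the threshold in any. The stellate cell transcription factor Hand2 differed from controls by -0.91 ± 0.17 at the low dose (adjusted p = 0.044 in the limma fit). In that comparison 0.243% of all genes passed, and only 2 genes did with slide as a block. Hand2 was dim, with levels from -4.40 to -2.94, at the 17.1th percentile of all genes. At the high dose 7 of 7 monocyte genes were above controls with a median of 0.52, and 11 of 11 B cell and MHC class II genes with a median of 0.69, led by H2-Ab1 at 0.94 ± 0.25 (adjusted p = 0.642). Neutrophil genes had a median of 0.59 there, and their mean level ran from -2.82 through a median of -2.47 to -2.20 in controls, from -2.84 through -2.23 to -0.84 at the low dose, and from -3.23 through -2.60 to 1.99 at the high dose, the last being high-dose mouse 2. Trem2, a lipid-sensing receptor of macrophages, was 1.35 ± 0.59 above controls at the low and 1.54 ± 0.59 at the high dose (limma adjusted p = 0.382 and 0.685). Its levels ran down to -6.11, and its SD was 1.48 in controls against 0.47 at the low dose. Among sinusoidal endothelial genes 2 of 11 were above controls at the high dose, with a median of -0.15, and among the 5 hepatocyte genes never saturated 2 were, with a median of -0.04. The part of these cell types in the values of the 10 marker genes was not tested.

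The promoters of the genes that moved together can be set side by side. RefSeq sequence of build GRCm38.p6 was matched by symbol for 7 of the 10 genes (Clec4f, Cd68, Marco, Vsig4, Cd5l, C1qb and C1qc), as the 250 bases before the start that the RefSeq promoter table gives, on the gene's own strand. For C1qc the last 22 of these bases lie inside the gene as the RefSeq gene table spans it; for the other 6 genes none do. The sequences of 4 are printed here: Marco and Cd5l as genes with opposite signs at both doses, and C1qb and C1qc as tightly correlated neighbours. They lie at chr1:120505025-120505274 on the minus strand (Marco), chr3:87357631-87357880 on the plus strand (Cd5l), and on the minus strand at chr4:136886201-136886450 (C1qb) and chr4:136892915-136893164 (C1qc). Capitals mark the letters GAGGAAG, a core of the sites bound by the macrophage factor PU.1, or their reverse complement CTTCCTC.
Marco: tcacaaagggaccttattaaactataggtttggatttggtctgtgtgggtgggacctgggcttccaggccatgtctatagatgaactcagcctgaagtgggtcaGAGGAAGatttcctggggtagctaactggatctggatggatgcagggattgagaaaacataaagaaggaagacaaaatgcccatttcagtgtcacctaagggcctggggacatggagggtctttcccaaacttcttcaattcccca
Cd5l: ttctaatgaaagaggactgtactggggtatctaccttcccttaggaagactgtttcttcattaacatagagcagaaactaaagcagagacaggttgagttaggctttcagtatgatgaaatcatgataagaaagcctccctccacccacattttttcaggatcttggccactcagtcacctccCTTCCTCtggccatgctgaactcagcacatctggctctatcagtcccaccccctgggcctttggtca
C1qb: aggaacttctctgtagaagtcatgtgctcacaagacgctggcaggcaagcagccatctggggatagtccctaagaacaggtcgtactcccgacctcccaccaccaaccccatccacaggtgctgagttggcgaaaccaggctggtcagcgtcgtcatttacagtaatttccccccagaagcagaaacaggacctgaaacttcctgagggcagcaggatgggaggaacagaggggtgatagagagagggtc
C1qc: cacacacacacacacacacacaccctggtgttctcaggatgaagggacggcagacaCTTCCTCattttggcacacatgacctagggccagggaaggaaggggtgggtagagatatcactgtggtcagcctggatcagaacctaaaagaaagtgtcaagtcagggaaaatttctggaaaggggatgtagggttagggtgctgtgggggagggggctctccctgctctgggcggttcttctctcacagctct

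GAGGAAG was found on either strand in 3 of the 7 promoters and in 10.6% of 32851 RefSeq promoters of the same length. Counted from the start in the promoter table, it lay at -146 to -140 in Marco on the gene's strand, at -67 to -61 in Cd5l and at -194 to -188 in C1qc, both on the opposite strand. C1qb, with r = 0.94 to C1qc over the mice, held none of these letters in this window. TGCTGAC, letters of sites bound by MAF factors, was in 0 of 7 promoters (3.81% of all), the E-box CACGTG in 0 of 7 (6.02%) and TATAAA in 0 of 7 (12.4%). These matches describe letters and not bound sites. C1qb, C1qc and C1qa are 3 neighbouring genes that together span 18719 bases of chromosome 4.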

How the data were processed

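Liver RNA of 18 mice was measured on Agilent 1-colour mouse arrays. The deposited scanner files hold the intensity of each spot, background-subtracted by Agilent Feature Extraction 9.5, per the file headers and the submitters' processing notes, not scaled between arrays. The deposited value table holds log2 intensity of 22514 probes, made by the authors with unstated steps; the notes also name limma. Levels were computed as log2 intensity minus the array's 75th percentile. Outlier spots were dropped, repeated spots averaged, probes kept when well above background on at least 6 of 18 arrays, and each gene read from its brightest kept probe (17681 genes, 472 with a missing value). Symbols were updated through RefSeq accessions (23483 probes matched). Groups were compared with limma 3.58.1 in R 4.3.3 (lmFit and eBayes, all 18 arrays, group as the only term, 2-sided, Benjamini-Hochberg adjustment over all genes). The fit was run on simulated data with independent noise for each gene and known shifts. That simulation held no slide, position or correlation between genes, so it cannot show how the fit deals with these.

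Correlations used levels with group means removed. Likeness to the marker genes was measured against the mean of their standardised levels, over genes with no missing value. Arrays that shared a scan time in the headers were taken as 1 slide (5 slides); all were scanned on 1 day. Mouse numbers were not taken to pair groups, because the labels do not say that they do. Over all genes, same-numbered mice correlated above 0.1 in 1 of 6 numbers for control and low dose and 2 of 6 for low and high dose. For control and high dose it was 5 of 6, with a median r of 0.14, against -0.06 for mice of different number. In these 2 groups, mice 1, 2, 3 and 5 shared a slide with the same-numbered mouse, so number and slide are partly tied there. A fit with mouse number as a block is given below. Precision is limited by the number of arrays.

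The marker genes and all lists were chosen with earlier results of these data known. Genes named are the 10 markers, the 10 genes most like them (1 is not reported here) and up to 3 genes of each list with the smallest p in a comparison; other genes were chosen after their values were seen. Alternatives were other scalings, another background method, the deposited table, other filters and probe rules, slide or mouse number as a block, and leaving out each array. After the data were seen, the likeness of the lists was also computed without high-dose mouse 2 and, for the hepatocyte and complement lists, over genes with no saturated array.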

Additional observations from a re-analysis of the deposited data

Results flagged for a closer look

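Clec4f in high-dose mouse 2, at 5.06, lay far from the other 5 high-dose mice, which ran from 3.65 to 3.94. The gap to its nearest neighbour was 0.797 of the group's range. Of 30 combinations of marker gene and group examined, 1 was singled out, and chance singles out about 1 in 20. The same mouse was the highest high-dose mouse for all 10 marker genes and held the highest S100a9 and Cd14 of the study.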

How the results depend on the processing

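The count of marker genes past the threshold was 0 in each comparison under all 29 alternatives, with lowest adjusted p of 0.488 for low dose against control, 0.730 for high dose against control and 0.771 between the doses. Directions were less stable. For high against low dose, normexp background left 6 of 10 genes higher and turned Clec4f (-0.069), Adgre1 (-0.11), Vsig4 (-0.0067) and Cd5l (-0.079). Adgre1 also turned with array median scaling (-0.050), the deposited table (-0.0195) and the mean of its probes (-0.025). For low dose against control, Cd68 was -0.11 with normexp background, and C1qa -0.0012 and C1qc -0.046 with slide as a block. The cause was not tested.

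Leaving out 1 array gave, for the members higher, 3 to 9 at the low dose, 9 to 10 at the high dose and 5 to 10 between the doses, with median log2 differences of -0.02 to 0.30, 0.20 to 0.53 and -0.01 to 0.39. The lowest counts came without low-dose mouse 1, where 6 genes changed sign, or control mouse 4, where 5 did, and without high-dose mouse 2, where 5 did. Values ran from -0.034 to 0.51 (Adgre1), -0.071 to 0.25 (C1qa), -0.031 to 0.30 (C1qb), -0.10 to 0.25 (C1qc), -0.049 to 0.19 (Clec4f) and -0.0084 to 0.33 (Csf1r) at the low dose, and from -0.69 to 0.068 for Marco at the high dose. For high against low dose they ran from -0.19 to 0.29 (Adgre1), -0.090 to 0.36 (Cd5l), -0.026 to 0.27 (Clec4f), -0.13 to 0.57 (Marco) and -0.12 to 0.28 (Vsig4).

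Over all genes, 43 passed for low dose against control. The count was 8 with array median scaling, 7 with normexp background, 9 with no filter, 70 with the stricter filter, 15 with the mean of probes, 79 with only the groups compared, 2 with slide as a block and 2 to 73 without 1 array. For high against low dose 5 passed, against 1 with normexp background, 1 with no filter, 11 with every probe alone, 0 with only the groups compared, 0 with slide as a block and 1 to 9 without 1 array. High dose against control stayed at 0. With mouse number as a replicate block, the counts were 5 and 0 for the low and high dose against control and 0 between the doses, and no call of a marker gene changed.

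The median correlation of the 45 pairs ran from 0.86 to 0.93 over all alternatives, and from 0.88 to 0.92 without 1 array, with lowest pairs of 0.72 to 0.79 there. With normexp background the lowest pair was -0.059. That setting moved the 9 pairs with Cd68 to between -0.059 and 0.46, and the other 36 pairs kept a lowest r of 0.74. Without high-dose mouse 2 the median r of macrophage transcription factors was 0.074, of classical complement genes -0.045 and of hepatocyte genes -0.024, each turned in sign. Over the 5 hepatocyte genes never saturated it was -0.21.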
